A study of Mus musculus with 6 samples.

Results

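A pair of libraries from sorted double reporter fibroblasts, Acta2 low and Acta2 high, was set against the single reporter library recovered 4 days after transfer, Day 4. The comparison used 3 of the 6 libraries of the study and the 3984 genes, of 24408 in the deposited table, whose mean over the 3 libraries was at least 10 CPM (tags per 1000000 assigned tags). It addressed which genes lay outside the range spanned by the sorts in the Day 4 library, and how close the double reporter cells were to Day 4 cells as a whole.

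All 3 libraries came from lung fibroblasts of untreated C57BL/6 donor mice, enriched by removing cells that carried lineage markers. The cells were instilled into the airways of wild type hosts that had received bleomycin, a drug that injures the lung epithelium, by the same route 7 days earlier. Acta2 low and Acta2 high came from donors with both Col-GFP, a collagen reporter, and Acta2-mKO1, an orange fluorescent reporter of the smooth muscle actin gene, and are named for the reporter level by which they were sorted. Day 4 came from donors with Col-GFP alone, and Col-GFP positive cells were sorted from the host lungs 4 days after transfer. The other libraries were Untreated (donor cells before transfer), Day 2 and Day 7. The labels do not give the day on which the Acta2 sorts were taken, the promoter behind either reporter, the gates, or how many animals were pooled. Donor strain, gate, day and library preparation therefore cannot be told apart in any difference below, and with 1 library per group no difference has a replicate check.

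Fibroblasts build and remodel the connective tissue of the lung, and after injury a share of them become myofibroblasts, which assemble contractile bundles of smooth muscle actin and secrete collagen. Acta2 is the customary marker of that state, while matrix genes such as Col1a1, Postn and Cthrc1 mark it from the secretory side. In bulk libraries such as these, fewer cells of a kind and less RNA per cell cannot be told apart.

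Expression was read by 3′ SAGE, in which a transcript is counted through 1 short tag near its 3′ end, so levels do not depend on transcript length. Tags predicted from the GENCODE transcripts of the GRCm38 build are given for genes on which the results turn. Each is the 21 bases from the last CATG of the transcript, in the sense of the transcript, with that CATG in capitals; its use as the anchoring site is an assumption. The first 4 belong to genes lower in both sorts than in Day 4, the next pair to genes higher in both, and Spp1 and Acta2 to a gene that carried much of the Acta2 low difference and to the sorted gene. The transcripts lie on chromosomes 8, 11, 10, 3, 1, 8, 5 and 19 in the order printed.
Mt2: CATGtaactgacaataaaagc
Igfbp3: CATGcgctgtacagagctttc
Sgk1: CATGggttataatatgtacaa
S100a6: CATGccctctggatcaggcca
Lancl1: CATGtagatagacttagattg
Dnajb1: CATGctgcagtctgctcaaca
Spp1: CATGcaaacaccgttgtaacc
Acta2: CATGgatatgcatgcgtgact

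None of these 8 tags is predicted for another gene. The tag predicted for Luc7l2, an RNA splicing factor gene on chromosome 6 and one of the 6 most abundant genes here, is a contrast, because 178 other genes share it, Nphs1 and Polr2l among them.
Luc7l2: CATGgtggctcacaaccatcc

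The 3 libraries held 5090808 tags (Acta2 low), 5008311 tags (Acta2 high) and 4448065 tags (Day 4), and 12878, 12848 and 12752 genes had at least 1 tag in them. A level of 10 CPM in Day 4 has a 95% Poisson interval of 7.19 to 13.3 CPM. Intervals here cover counting error only, since PCR copies were not marked. Genes with a predicted tag found in 20 or more other genes took 6.19% of the tags in Acta2 low, 4.62% in Acta2 high and 6.48% in Day 4. Fibroblast markers summed to 12892 CPM in Acta2 low, 18039 CPM in Acta2 high and 16995 CPM in Day 4. All 10 of these markers were detected in each library. Macrophage and monocyte markers summed to 42.4 CPM in Acta2 low, 20.6 CPM in Acta2 high and 10.3 CPM in Day 4, most of it in Acta2 low and Acta2 high from Lyz1. Lymphocyte markers summed to 0 CPM in Acta2 low, 0.200 CPM in Acta2 high and 0 CPM in Day 4. Neutrophil, epithelial and endothelial lists each summed to at most 13.3 CPM in any of the 3.

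The reporter gene itself was ordered as the sort labels have it. Acta2 stood at 451 CPM in Acta2 high and 277 CPM in Acta2 low, and the Day 4 library, with 350 CPM, lay between them. Col1a1, the main fibrillar collagen chain, stood at 4293 CPM in Acta2 low, 7953 CPM in Acta2 high and 3560 CPM in Day 4. Day 4 was thus below both sorts for Col1a1, near Acta2 low and well under Acta2 high. The same order held for Col3a1, its partner in young scar tissue, with 1113 CPM in Acta2 low, 1916 CPM in Acta2 high and 1037 CPM in Day 4, and for Cthrc1, a secreted marker of fibrotic fibroblasts, with 1325, 2092 and 970 CPM in those libraries. Periostin (Postn), a matrix protein of wounds, stood at 27.3 CPM in Acta2 low and 66.9 CPM in Acta2 high, on either side of 41.1 CPM in Day 4. Tenascin C (Tnc), another wound matrix protein, had 209 CPM in Acta2 low, 149 CPM in Acta2 high and 119 CPM in Day 4. Timp1, an inhibitor of matrix proteases, had 10102, 12405 and 9777 CPM in Acta2 low, Acta2 high and Day 4. Gli1, a Hedgehog target gene, had 20 tags in Acta2 low, 16 in Acta2 high and 19 in Day 4, and Mki67, a marker of dividing cells, had 18, 10 and 20 tags. Those last counts are too small to show a difference at this depth.

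Few genes were far from Day 4 in both sorts. For each sort the difference of log2(CPM + 1) from Day 4 was taken relative to the median gene, whose own shift was 0.09 in Acta2 low and -0.06 in Acta2 high. A gene was called when both sorts lay at least 2-fold on the same side of Day 4. By this rule 10 genes were higher in both sorts than in Day 4, which is 0.251% of the 3984 measured, and 21 were lower, which is 0.527%. Taken singly at the same threshold, Acta2 low had 50 genes above Day 4 (1.26%) and 76 below it (1.91%), and Acta2 high had 51 above (1.28%) and 51 below (1.28%). At 1.5-fold, 117 genes were higher in both sorts (2.94%) and 132 lower (3.31%). By counting intervals alone, with both ratios beyond 1, 445 were higher (11.2%) and 560 lower (14.1%). On the CPM values as deposited, Day 4 was below both sorts for 1437 genes (36.1%), above both for 1330 (33.4%) and between them for 1217. Relative to the median gene, Day 4 was below both for 1421 and above both for 1422. The sorts share the Day 4 library in every such count, so a high or low tag count in Day 4 moves both differences the same way.

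**Figure D1:**
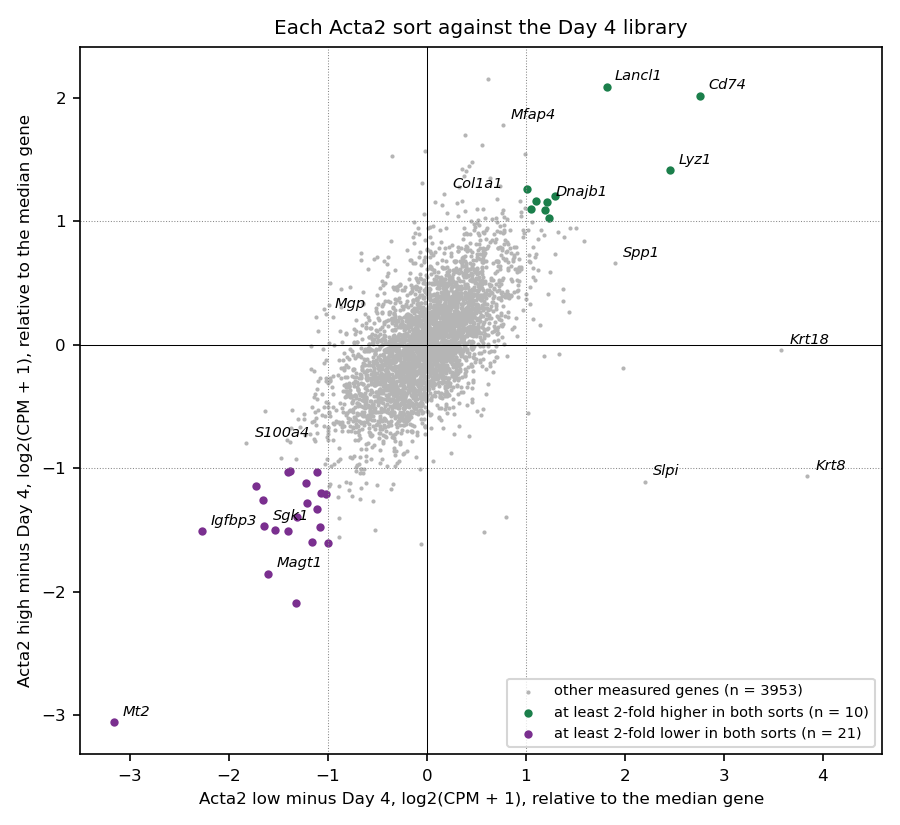
Difference of each sort from Day 4 in log2(CPM + 1), relative to the median gene, with Acta2 low on the horizontal and Acta2 high on the vertical axis; each point is 1 of 3984 genes and dotted lines mark 2-fold. Most genes crowd within 2-fold of Day 4, Mt2 stands alone at the lower left, and Krt8, Slpi and Krt18 lie far to the right on Acta2 low alone.

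The 21 genes lower in both sorts were led by Mt2, a metallothionein that binds zinc and copper. Mt2 had 2459 tags in Acta2 low (483 CPM) and 2345 in Acta2 high (468 CPM), against 18072 in Day 4 (4063 CPM). The sorts lay close together and far below Day 4. Relative to the median gene, Mt2 was 8.97-fold lower in Acta2 low (95% counting interval 8.60 to 9.36) and 8.33-fold lower in Acta2 high (7.98 to 8.70). It was the 1 gene that passed a 4-fold rule in the lower direction. In the other transfer libraries Mt2 stood at 8447 CPM at Day 2 and 209 CPM at Day 7, so both sorts fell between the Day 4 and Day 7 levels.

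Igfbp3, which binds insulin-like growth factors outside the cell, had 111 CPM in Acta2 low and 171 CPM in Acta2 high, against 509 CPM in Day 4. It was 4.87-fold lower in Acta2 low (4.44 to 5.35) and 2.86-fold lower in Acta2 high (2.64 to 3.09). Igfbp3 stood at 645 CPM at Day 2 and 676 CPM at Day 7, so both sorts lay below all 3 transfer days. Sgk1, a kinase whose gene responds to serum and glucocorticoids, had 49.9 CPM in Acta2 low and 50.7 CPM in Acta2 high, against 148 CPM in Day 4. Magt1, a subunit of the enzyme that attaches sugars to new proteins and a magnesium transporter, had 49.3 CPM in Acta2 low and 37.1 CPM in Acta2 high, against 143 CPM in Day 4. For both of these genes the sorts were 2.80-fold to 3.68-fold below Day 4. Sgk1 stood at 114 CPM at Day 2 and 41.3 CPM at Day 7, and Magt1 at 104 and 13.3 CPM.

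Among lower genes with known extracellular or calcium-binding roles, Mmp3, a protease that cuts many matrix proteins, had 78.8 CPM in Acta2 low and 60.7 CPM in Acta2 high, against 161 CPM in Day 4. S100a6, a small calcium-binding protein of proliferating fibroblasts, had 860 CPM in Acta2 low and 1001 CPM in Acta2 high, against 2127 CPM in Day 4. It was the second most abundant gene called, after Mt2, and both sorts were near the 1078 CPM of Day 2 and the 903 CPM of Day 7. Day 4 therefore held the highest S100a6 level of the 5 libraries after transfer. Intracellular genes of moderate level were also called, among them Mpp6, a membrane scaffold, with 54.2 CPM in Acta2 low and 46.3 CPM in Acta2 high against 119 CPM in Day 4, and Yrdc, an enzyme of transfer RNA modification, with 44.6 and 51.7 CPM against 111 CPM.

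The other lower genes with a full name were picked after their values were seen. Slit3, a secreted guidance ligand for Robo receptors, had 10.4 CPM in Acta2 low and 14.4 CPM in Acta2 high, against 34.4 CPM in Day 4. Ptx3, a soluble pattern recognition protein, had 16.7 CPM in Acta2 low and 13.6 CPM in Acta2 high, against 33.9 CPM in Day 4. Zfp36l2, which binds AU-rich messenger RNA and shortens its life, had 27.7 and 25.4 CPM in Acta2 low and Acta2 high, against 76.9 CPM in Day 4. Cirbp, an RNA-binding protein raised by cold, Rras2, a small GTPase of the Ras family, Arrdc4, Rab11fip1, Wdfy1 and Wdr92 were called as well. Their levels ran from 3.79 CPM (Rab11fip1 in Acta2 high) to 242 CPM (Wdr92 in Day 4). A further 3 lower genes carry only provisional identifiers.

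The 10 genes higher in both sorts were mostly of low abundance, and 1 of them, Dnajb1, had a mean of at least 50 CPM. Dnajb1, a heat shock co-chaperone of the Hsp40 family, had 263 CPM in Acta2 low and 227 CPM in Acta2 high, against 106 CPM in Day 4. It was 2.33-fold higher in Acta2 low (2.10 to 2.60) and 2.24-fold higher in Acta2 high (2.01 to 2.49), and stood at 126 CPM at Day 2 and 411 CPM at Day 7. Lancl1, a glutathione-binding protein, had 50.9 CPM in Acta2 low and 55.5 CPM in Acta2 high, against 12.8 CPM in Day 4. With 259, 278 and 57 tags in these libraries, Lancl1 was 3.72-fold higher in Acta2 low (2.79 to 5.05) and 4.51-fold higher in Acta2 high (3.38 to 6.11). Cd74, Lancl1, Rbm45, Tle2, Josd2, Tnfaip8 and Srp54b were named after their values were seen. Rbm45, an RNA-binding protein, had 47.5 CPM in Acta2 low and 39.9 CPM in Acta2 high, against 17.5 CPM in Day 4. Tle2, a transcriptional corepressor, had 26.9 and 20.8 CPM in Acta2 low and Acta2 high, against 10.1 CPM in Day 4. Josd2, a deubiquitinating enzyme, had 49.5 CPM in Acta2 low and 53.1 CPM in Acta2 high, against 22.5 CPM in Day 4, and Tnfaip8, a regulator of cell death, had 16.1 and 15.0 CPM against 6.74 CPM. A further higher gene carries only a provisional identifier. Srp54b has near-identical copies in the mouse genome, so its 40.9, 38.3 and 17.3 CPM in Acta2 low, Acta2 high and Day 4 are uncertain.

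A pair of the higher genes belongs to immune cells by textbook use. Cd74, the chaperone of class II antigen presentation, had 131 tags in Acta2 low (25.7 CPM) and 67 in Acta2 high (13.4 CPM), against 12 in Day 4 (2.70 CPM). Lyz1, a lysozyme gene of phagocytes, had 35.2 CPM in Acta2 low and 14.8 CPM in Acta2 high, against 5.17 CPM in Day 4. At Day 2 and Day 7, Cd74 stood at 4.05 and 22.4 CPM, and Lyz1 at 4.37 and 20.2 CPM. Both genes were also higher in Untreated than in Day 4. A level above Day 4 was thus not particular to the sorts for either gene. Cd74 was 8.95-fold higher in Acta2 low (4.95 to 17.8) and 5.17-fold higher in Acta2 high (2.77 to 10.5), the 1 gene past 4-fold in the higher direction. Of the 20 macrophage and monocyte markers, Lyz1 included, 11 had a tag in Acta2 low, 6 in Acta2 high and 8 in Day 4. Fcgr3, an antibody receptor of phagocytes, had 12, 15 and 12 tags in these libraries, and Ptprc, Cd68, Emr1, Marco, Ccr2 and Aif1 were at 0 in all 3. Lyz2, whose messenger is closely related to that of Lyz1, had 0.196 CPM in Acta2 low and no tag in Acta2 high or Day 4, so how tags were divided between the 2 genes is uncertain. The part of other cell types in Cd74 and Lyz1 was not tested.

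**Figure D2:**
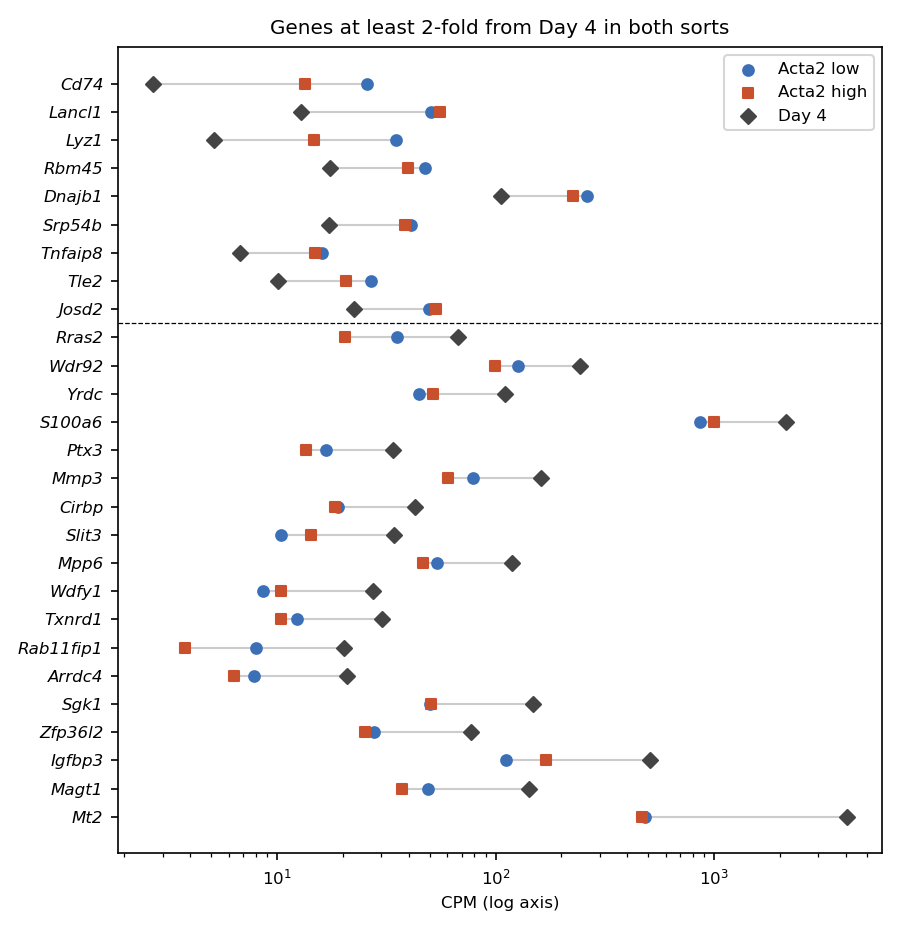
CPM on a log axis in Acta2 low, Acta2 high and Day 4 for the 27 called genes that have a gene name, with the 9 higher in both sorts above the dashed line and the 18 lower below it. The sorts sit close together for most genes, as for Mt2 with 483 and 468 CPM against 4063 CPM in Day 4.

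Because the called genes were few, gene groups were described from 28 lists that hold 425 measured genes between them. No member was called higher at 2-fold and 4 were called lower, in 3 of the 28 lists, namely Mt2, Txnrd1, Mmp3 and S100a6. At 1.5-fold, 16 members were higher in both sorts and 21 lower, beside the 2.94% and 3.31% of all measured genes given above. The other 25 lists held no gene called at 2-fold. Since 0.251% of all measured genes were called higher and 0.527% lower, nothing is read from that.

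The list of metallothionein and oxidative defence genes leaned lower. Of 14 measured members, 2 were called at 2-fold and 5 at 1.5-fold, all lower, and none was higher at 1.5-fold. Over all measured genes 0.527% were lower at 2-fold, and 3.31% were lower and 2.94% higher at 1.5-fold. The list median relative to the median gene was -0.26 (log2) in Acta2 low and -0.50 in Acta2 high. Fth1, the ferritin heavy chain that stores iron, stood at 8346 CPM in Acta2 low and 6800 CPM in Acta2 high, against 15450 CPM in Day 4. Txnrd1, the reductase that keeps thioredoxin active, had 12.4 CPM in Acta2 low and 10.4 CPM in Acta2 high, against 30.1 CPM in Day 4. Gclm, a subunit of the enzyme that starts glutathione synthesis, had 12.4 and 17.2 CPM in Acta2 low and Acta2 high, against 31.7 CPM in Day 4, and Gsr, glutathione reductase, had 15.9 and 9.18 CPM against 24.3 CPM. The direction was not shared by every member. Sod3, an extracellular superoxide dismutase, stood at 1267 CPM in Acta2 low and 1372 CPM in Acta2 high, against 901 CPM in Day 4, and Gpx1, a peroxidase, at 1131 and 1315 CPM against 1034 CPM.

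The cytoplasmic ribosomal protein genes, which build the translation machinery, were lower as a group by small amounts. Of 32 measured members, Day 4 lay above both sorts in 29 and below both in none, and 26 were lower by counting intervals. Over all measured genes, Day 4 lay above both in 33.4% and 14.1% were lower by intervals. The medians were -0.52 (log2) in Acta2 low and -0.36 in Acta2 high. At 1.5-fold 5 members were lower, Rpl13, Rplp0, Rpl23, Rpl18 and Rpl8, beside 3.31% of all measured genes. Rplp0, of the ribosomal stalk, had 1339 CPM in Acta2 low and 1732 CPM in Acta2 high, against 2767 CPM in Day 4. Rps4x was an exception, with 37.5 CPM in Acta2 low and 78.7 CPM in Acta2 high on either side of 45.4 CPM in Day 4. Many of these genes have processed pseudogenes in the genome, so single values are uncertain where tags could be split between copies.

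In the list of S100 proteins and annexins, 14 members were measured. S100a6, S100a4 and S100a10 were lower in both sorts at 1.5-fold, beside 3.31% of all measured genes, and no annexin was. S100a4, a calcium-binding protein long used as a fibroblast marker, had 474 CPM in Acta2 low and 869 CPM in Acta2 high, against 1576 CPM in Day 4. Anxa5, which binds exposed phospholipid, stood at 2484 CPM in Acta2 low and 1815 CPM in Acta2 high, against 1672 CPM in Day 4. Anxa2, the partner of S100a10, had 5014 CPM in Acta2 low and 2711 CPM in Acta2 high, on either side of 4033 CPM in Day 4.

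Contractile genes leaned higher in the sorts. Of 20 measured members, Day 4 lay below both sorts in 15, 12 were higher by counting intervals and none lower, and 3 reached 1.5-fold. Over all measured genes these shares were 36.1% below both, 11.2% higher by intervals and 2.94% at 1.5-fold. The medians were 0.18 (log2) in Acta2 low and 0.41 in Acta2 high. Cnn2, a calponin that binds actin, had 371 CPM in Acta2 low and 367 CPM in Acta2 high, against 202 CPM in Day 4. Desmin (Des), an intermediate filament protein of muscle and pericytes, had 189 CPM in Acta2 low and 101 CPM in Acta2 high, against 58.2 CPM in Day 4, and smoothelin (Smtn) had 47.1 and 42.5 CPM against 25.6 CPM. Markers of pericytes and smooth muscle, Des among them, summed to 219 CPM in Acta2 low, 140 CPM in Acta2 high and 76.2 CPM in Day 4, and their part in the list was not tested. Myl9, the regulatory light chain of smooth muscle myosin, had 272 CPM in Acta2 low and 512 CPM in Acta2 high, against 173 CPM in Day 4, which is 0.56 and 1.62 on the log2 scale relative to the median gene. Tagln, an actin-binding protein of smooth muscle, had 217 CPM in Acta2 low and 387 CPM in Acta2 high, against 183 CPM in Day 4, which is 0.15 and 1.13.

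Collagen chains lay near Day 4 in Acta2 low and above it in Acta2 high. Of 16 measured chains none was called at 1.5-fold, and 2 were higher in both sorts by counting intervals, beside 2.94% and 11.2% of all measured genes. The list median was -0.07 (log2) in Acta2 low and 0.57 in Acta2 high. Day 4 lay below both sorts in 9 chains, between them in 6 and above both in 1. Col6a2, a chain of beaded microfibrils, had 313 CPM in Acta2 low and 650 CPM in Acta2 high, on either side of 442 CPM in Day 4. Wound matrix glycoproteins had medians of -0.04 in Acta2 low and 0.60 in Acta2 high over 22 measured members. Mfap4, a microfibril protein, was higher in both, with 765 CPM in Acta2 low and 1392 CPM in Acta2 high, against 422 CPM in Day 4. Spp1 (osteopontin, a secreted adhesive phosphoprotein) stood at 51706 CPM in Acta2 low and 19670 CPM in Acta2 high, against 12975 CPM in Day 4. Its differences were 1.90 and 0.66 on the log2 scale, and the Day 2 and Day 7 libraries held 357 and 72790 CPM.

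**Figure D3:**
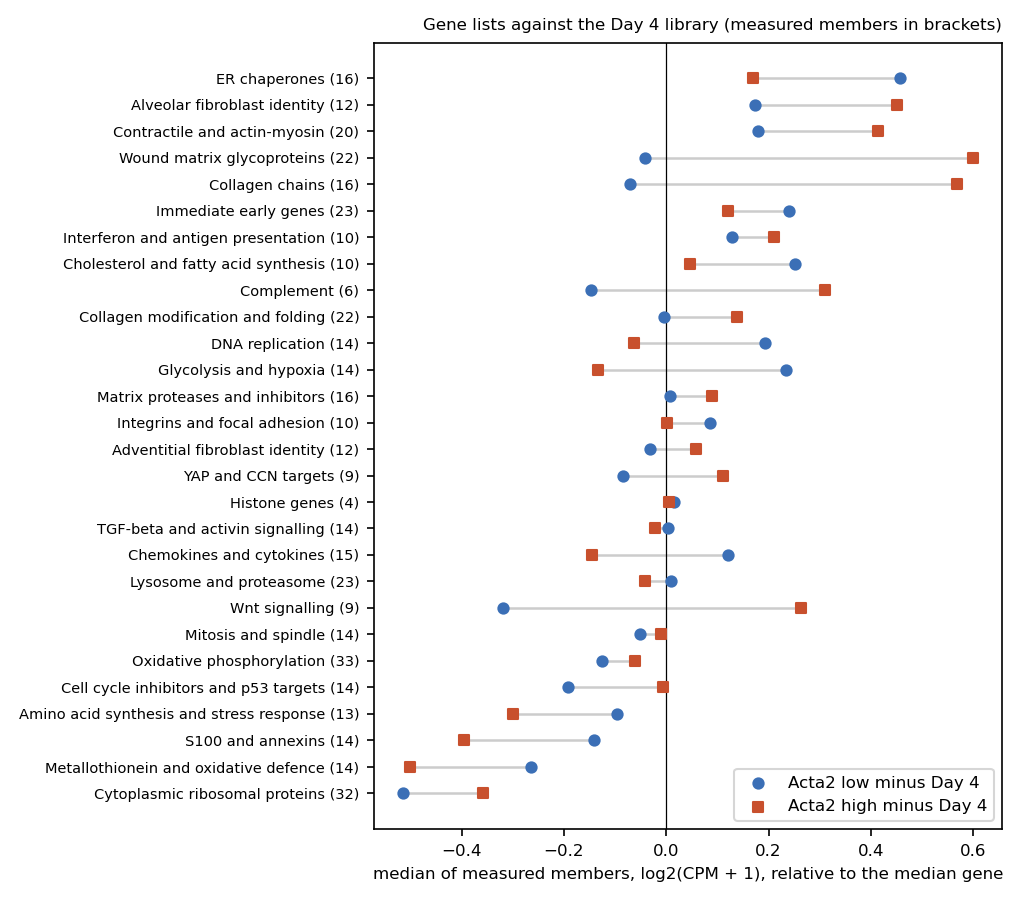
Median difference from Day 4, in log2(CPM + 1) relative to the median gene, for 28 gene lists, with circles for Acta2 low, squares for Acta2 high and the number of measured members in brackets. Ribosomal, oxidative defence and S100 genes lie left of 0 in both sorts, while collagen chains and wound matrix genes have Acta2 high well to the right and Acta2 low near 0.

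Genes that modify and fold collagen lay near Day 4 as a group. Over 22 measured members the medians were -0.005 (log2) in Acta2 low and 0.14 in Acta2 high. At 1.5-fold 1 member was higher in both sorts and 1 lower, beside 2.94% and 3.31% of all measured genes. Serpinh1, the collagen chaperone of the endoplasmic reticulum, stood at 6019 CPM in Acta2 low and 4635 CPM in Acta2 high, against 2531 CPM in Day 4. Lox, which cross-links collagen outside the cell, went the other way, with 31.6 CPM in Acta2 low and 46.7 CPM in Acta2 high, against 78.5 CPM in Day 4. General chaperones of the endoplasmic reticulum had medians of 0.46 (log2) in Acta2 low and 0.17 in Acta2 high over 16 members, with 6 higher by counting intervals and 1 lower, against the same 11.2% and 14.1%. Herpud1, a stress-induced membrane protein of that compartment, had 190 CPM in Acta2 low and 156 CPM in Acta2 high, against 106 CPM in Day 4. Hspa5, its main Hsp70 chaperone, was high mainly in Acta2 low, with 1478 CPM there, 824 CPM in Acta2 high and 740 CPM in Day 4.

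Matrix proteases and their inhibitors differed in both directions. Mmp14, a membrane-bound collagenase, had 805 CPM in Acta2 low and 823 CPM in Acta2 high, against 491 CPM in Day 4, and Serpine2, an inhibitor of thrombin and plasminogen activators, had 775 and 647 CPM against 390 CPM. These stood opposite Mmp3, described above. Immediate early genes, transcription factors and regulators induced within minutes of a stimulus, were more often higher than lower by counting intervals. Of 23 measured, 10 were higher by counting intervals and 3 lower, beside 11.2% and 14.1% of all measured genes. At 1.5-fold 1 member was higher in both sorts and 1 lower. Jun had 1579 CPM in Acta2 low and 1397 CPM in Acta2 high, against 908 CPM in Day 4, while Klf4 had 49.9 and 63.7 CPM against 111 CPM. The 2 cell cycle lists, replication and mitosis with 14 measured genes each, held no gene at 1.5-fold. Beside 2.94% higher and 3.31% lower of all measured genes, nothing is read from that. Among inhibitors of the cycle, Cdkn1a (p21) had 439 CPM in Acta2 low and 279 CPM in Acta2 high, against 632 CPM in Day 4, and Cdkn2b (p15) had 16.9 and 19.8 CPM against 9.67 CPM.

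Markers of resting fibroblast kinds were mixed. Of 12 alveolar fibroblast genes measured, Ogn and Npnt were higher and Fmo2 lower in both sorts at 1.5-fold, beside 2.94% and 3.31% of all measured genes. Npnt, a basement membrane ligand of integrins, had 31.6 CPM in Acta2 low and 25.2 CPM in Acta2 high, against 15.3 CPM in Day 4. Of 12 adventitial genes, Sept4 was higher and Ly6a and Pcolce2 were lower, beside the same shares. Ly6a, the stem cell antigen Sca-1, had 25.7 CPM in Acta2 low and 36.5 CPM in Acta2 high, against 65.6 CPM in Day 4. No member of the lists for TGF-beta signalling, integrins, YAP targets, chemokines, interferon, complement, glycolysis or oxidative phosphorylation reached 1.5-fold in both sorts. Since few of all measured genes reached it (2.94% higher and 3.31% lower), nothing is read from that.

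Where the sorts differed from each other, Day 4 usually lay between them. Genes at least 2-fold apart were chosen without the Day 4 library: 43 were higher in Acta2 high (1.08%) and 22 were lower in it (0.552%). On a scale with Acta2 low at 0 and Acta2 high at 1, the median Day 4 position over these 65 genes was 0.49 (95% interval over genes 0.36 to 0.65). Day 4 fell between the sorts in 46 of them, beyond Acta2 low in 11 and beyond Acta2 high in 8. The median was 0.39 (0.11 to 0.63) for genes higher in Acta2 high and 0.63 (0.36 to 0.94) for genes lower in it. Both intervals hold the midpoint on this log2 scale, but the positions depended on the scale. On CPM the medians were 0.279 (0.021 to 0.538) and 0.733 (0.502 to 0.964), so the second interval lay just past the midpoint. Day 4 then fell between the sorts in 42 of the 65 genes. With no centring the log2 median over all 65 was 0.615 (0.476 to 0.760). Genes chosen for a wide gap between the sorts leave more room for Day 4 inside it. Over all measured genes, relative to the median gene, Day 4 lay outside neither end of that range in 28.6%.

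The 3 genes at least 4-fold apart with a mean of at least 50 CPM were all lower in Acta2 high. Krt8, a keratin of simple epithelia and mesothelium, had 6.99 CPM in Acta2 high and 265 CPM in Acta2 low, with 16.4 CPM in Day 4. Slpi, a protease inhibitor of secretory surfaces, had 22.2 CPM in Acta2 high and 254 CPM in Acta2 low, with 51.0 CPM in Day 4. Cck, which encodes the peptide cholecystokinin, had 36.7 CPM in Acta2 high and 179 CPM in Acta2 low, with 112 CPM in Day 4. Mesothelial markers together summed to 572 CPM in Acta2 low, 34.9 CPM in Acta2 high and 76.0 CPM in Day 4. Krt8 and Slpi carried most of that sum in Acta2 low, and the part of mesothelial cells was not tested.

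The distance of whole libraries was measured as the median absolute log2 difference relative to the median gene, over 4161 genes with a mean of at least 10 CPM across the 6 libraries. Among the 4 libraries other than the sorts, both sorts were nearest to Day 4. Acta2 low lay 0.27 from Day 4 (95% interval over genes 0.27 to 0.28), 0.38 from Day 2, 0.44 from Day 7 and 0.68 from Untreated. Acta2 high lay 0.26 from Day 4 (0.25 to 0.27), 0.34 from Day 7, 0.43 from Day 2 and 0.64 from Untreated. The second nearest library was thus Day 2 for Acta2 low and Day 7 for Acta2 high. The sorts themselves lay 0.23 apart, and Day 4 lay 0.34 from Day 2 while Day 7 lay 0.47 from Day 4. Genes are not replicates, so these intervals describe the spread among genes only.

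Within 2-fold of Day 4 stood 96.6% of genes in Acta2 low and 97.3% in Acta2 high, beside 98.4% between the sorts. Summing for each gene the smaller of the 2 CPM values, Acta2 low shared 86.8% of its CPM with Day 4 and Acta2 high shared 85.8%, while the sorts shared 83.7% with each other. By abundance, then, each sort was at least as close to Day 4 as to the other sort, and by the typical gene the sorts were nearer each other. Some single genes made large parts of the abundance difference. Spp1 alone made 14.7% of the summed absolute CPM difference of Acta2 low from Day 4 and Mgp, an inhibitor of calcification, made 8.72%. Every other gene made at most 2.70% of that difference. Mgp had 25627 CPM in Acta2 low and 55310 CPM in Acta2 high, on either side of 48560 CPM in Day 4. In Acta2 high, Tmsb4x, which binds actin monomers, made 17.2% of the difference, with 110391 CPM in Acta2 high against 61272 CPM in Day 4, and 60235 CPM in Acta2 low. Luc7l2, whose tag is shared, made 5.40%, with 31665 CPM in Acta2 high against 47061 CPM in Day 4. Zyg11b made 4.95%, with 36088 CPM in Acta2 high against 50186 CPM in Day 4. No other gene holds the predicted tag of Zyg11b, yet its level ran near that of Luc7l2 after transfer. Zyg11b and Luc7l2 had 36446 and 34477 CPM at Day 2, 5969 and 5026 CPM at Day 7, and 3755 and 1547 CPM in Untreated. Why they ran together was not tested, and Zyg11b was kept in the shares that follow. Without the genes that share a tag with 20 or more others, and still as a percent of the whole library, the CPM shared with Day 4 was 80.7% for Acta2 low and 81.2% for Acta2 high, and 79.2% between the sorts. Sparc, a collagen-binding matrix protein, had 21021 CPM in Acta2 low and 35921 CPM in Acta2 high, on either side of 26806 CPM in Day 4.

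**Figure D4:**
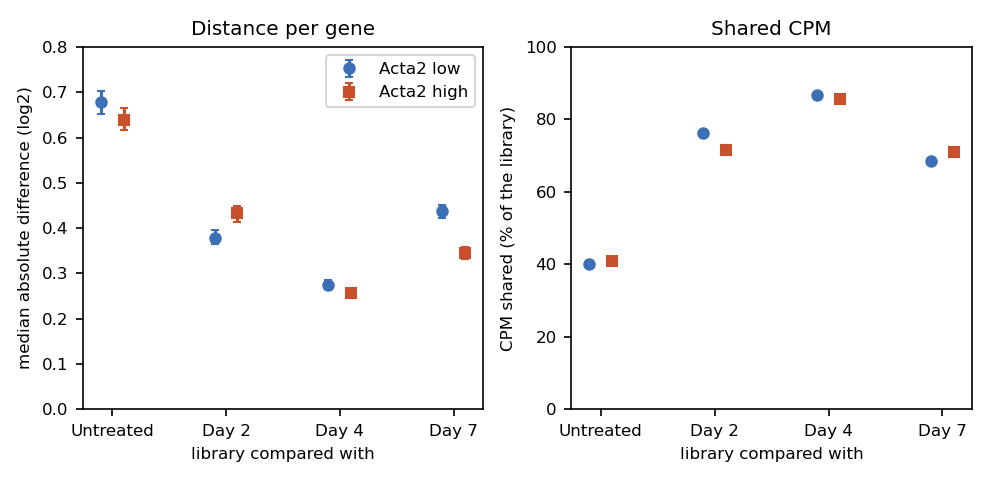
Distance of each sort from Untreated, Day 2, Day 4 and Day 7 as the median absolute log2 difference over 4161 genes (left, bars are 95% intervals over genes) and as the percent of CPM shared (right). Both sorts have their lowest distance (0.27 and 0.26) and highest shared CPM (86.8% and 85.8%) at Day 4.

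Gene by gene, Day 4 was the nearest of the 4 other libraries for 1662 genes in Acta2 low (39.9%) and 1698 in Acta2 high (40.8%). Day 2 came next in Acta2 low, with 1114 genes, and Day 7 in Acta2 high, with 1139. Computed mixtures of the sorts, which include each sort alone, were compared with Day 4 as well. In steps of 5%, the smallest distance, 0.24, came at 65% of Acta2 high by CPM, and 98.2% of genes then lay within 2-fold of Day 4. The minimum was flat, with distances of 0.24 to 0.25 from 50% to 80%, against 0.27 for Acta2 low alone and 0.26 for Acta2 high alone. Averaging the sorts lowers their counting error, which can by itself bring a mixture nearer. No likeness of Day 4 to a blend is therefore read from the minimum. A mixture cannot reach a gene for which Day 4 lies outside both sorts, and at 65% the counts past 2-fold were 39 higher and 36 lower.

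To place the sorts in time, 349 genes at least 4-fold apart between Day 7 and Day 2 were chosen without Day 4 and without the sorts. With Day 2 at 0 and Day 7 at 1 on the log2 scale, the median position was 0.41 for Acta2 low (95% interval over genes 0.38 to 0.45), 0.58 for Acta2 high (0.55 to 0.62) and 0.36 for Day 4 (0.31 to 0.41). Acta2 high lay further toward Day 7 than Day 4 in 328 of the 349 genes and Acta2 low in 230. For the 146 genes higher at Day 7, the positions were 0.41 in Acta2 low, 0.55 in Acta2 high and 0.30 in Day 4. For the 203 lower at Day 7, they were 0.41 in Acta2 low, 0.62 in Acta2 high and 0.40 in Day 4. These positions share the Day 4 library with the distances above, and a position is not a date, since the day of the sorts is not in the labels. Luc7l2 and Nphs1, which share a predicted tag, are both among the 203 genes lower at Day 7. Their positions were -0.15 and -0.16 in Acta2 low, 0.04 and 0.04 in Acta2 high, and -0.16 and -0.13 in Day 4. Genes with a predicted tag found in 20 or more others took 5.52% of tags at Day 2 and 1.29% at Day 7. A shared tag can thus be counted several times on this axis.

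**Figure D5:**
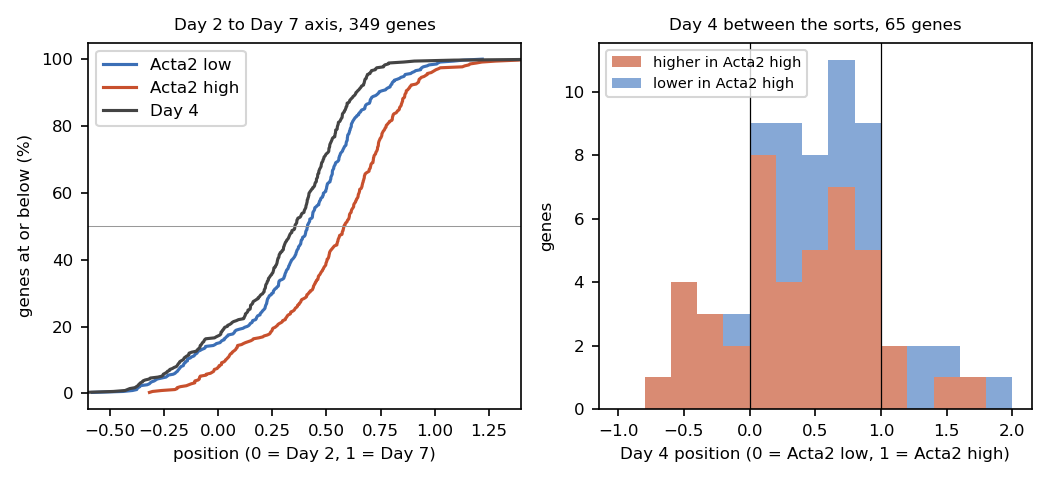
Cumulative percent of 349 genes by position between Day 2 (0) and Day 7 (1) for Acta2 low, Acta2 high and Day 4 (left), and the number of genes by Day 4 position between Acta2 low (0) and Acta2 high (1) for 65 genes at least 2-fold apart (right). The Acta2 high curve lies to the right, with a median of 0.58 against 0.41 for Acta2 low and 0.36 for Day 4, and 46 of the 65 genes fall between the vertical lines.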

How the data were processed

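Expression of 6 libraries, 1 per group, was measured by 3′ SAGE from PCR-amplified cDNA, per the labels' protocols. The values are CPM as deposited by the authors for 24408 gene symbols, per the file headers. BWA 0.6.2 and the mouse build mm9 are named in the submitters' processing notes. Neither the anchoring enzyme nor the strand setting nor the rule for assigning a tag to a gene is stated in the labels. In every library 100% of the CPM values were whole multiples of 1 tag within 0.001, which gave the tag counts and depths. In 25 rows a symbol turned into a date was repaired.

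Genes were kept where the 3 libraries averaged at least 10 CPM. Differences of log2(CPM + 1), which understate the change of low genes, were taken relative to the median gene. A gene was called at 2-fold in both sorts. Folds are CPM ratios relative to the median gene with exact conditional (Clopper-Pearson) 95% counting intervals. No test was run, since each group has 1 library. Named genes were 10 anchors, the 8 highest and 8 lowest called genes with a mean of at least 50 CPM, up to 3 called members of each list, genes 4-fold apart between the sorts, and the 6 most abundant; 1.5-fold members of lists and other genes were named after their values were seen. The members and lists were chosen with earlier results of these data known. Predicted tags come from GENCODE transcripts of a later build than mm9, so no coordinates are given. The calling rule and the counting intervals were tested on simulated tags with 4-fold changes and counting error only. Changes of 2-fold and the distance, mixture and position steps were not simulated. Python 3.11.15, numpy 2.4.6, pandas 2.3.3 and scipy 1.17.1 were used. Alternatives were other pseudocounts, filters, scalings and thresholds, single sorts and genes with shared tags.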

Additional observations from a re-analysis of the deposited data

How the results depend on the processing

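No paired analysis was possible because each group has 1 library, and no library could be left out of a group. The counts of genes higher and lower in both sorts were 10 and 21 of 3984 genes as reported. Some settings changed the number of genes measured, so their counts are not on the same base. The counts were 80 and 66 of 14342 genes with no filter and 1 and 8 of 1350 with a mean of at least 50 CPM. Without the 100 most abundant genes, and with the rest rescaled, they were 48 and 55 of 6571. Over the same 3984 genes they were 5 and 13 with a pseudocount of 5 CPM, 17 and 23 with 0.1 CPM, and 1 and 1 at 4-fold. Also over the 3984, they were 50 and 76 for Acta2 low alone and 51 and 51 for Acta2 high alone. They were 117 and 132 at 1.5-fold, and 445 and 560 by counting intervals alone. Requiring both intervals to exclude 1, or leaving out genes with shared tags, gave 10 and 21 again. The share of called genes that were higher was 32.3% as reported, 43.3% with no centring, 46.6% without the 100 most abundant genes, 42.5% with a pseudocount of 0.1 CPM and 11.1% with a mean of at least 50 CPM. It was 54.8% with no filter, where higher calls outnumbered lower ones. With the 100 left out, 10 and 19 of the reported genes were still called.

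Day 4 lay below both sorts for 4363 genes and above both for 5123, of 14342, with no filter. These counts were 459 and 468 of 1350 with a mean of at least 50 CPM. They were 2583 and 2155 of 6571 without the 100 most abundant genes. As reported, below outnumbered above (1437 and 1330), and the order was the other way with no filter and with the mean of at least 50 CPM. These counts use CPM as deposited, or CPM rescaled where the 100 genes were left out, so pseudocounts cannot change them. Relative to the median gene, Day 4 lay below both sorts for 1421 genes and above both for 1422, so neither side then outnumbered the other. The axis positions were computed without centring. With median-ratio scaling they were 0.42 for Acta2 low, 0.58 for Acta2 high and 0.35 for Day 4. The distance from Day 4 was 0.24 for Acta2 low and 0.22 for Acta2 high with a pseudocount of 5 CPM, and 0.31 and 0.29 without the 100 most abundant genes. For Acta2 low it was 0.29 with a pseudocount of 0.1 CPM and 0.29 with no centring. The closest mixture lay at 0.24. Acta2 low stood at 0.45 on the Day 2 to Day 7 axis without the 100 most abundant genes. The median of the immediate early list, over the mean of both sorts, was 0.07 with all genes and -0.03 without those 100. The causes were not tested. No repeat library was at hand, so how far any value would vary between preparations is unknown. At 10 CPM, counting error alone spans 7.19 to 13.3 CPM in Day 4.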

Other observations

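Further genes at 1.5-fold in both sorts that belong to none of the 28 pathway lists were picked after their values were seen. Vim, the main intermediate filament of fibroblasts and 1 of the 10 fibroblast markers, had 5876 CPM in Acta2 low and 6532 CPM in Acta2 high, against 11039 CPM in Day 4. Cav1, the scaffold of caveolae, had 157 CPM in Acta2 low and 102 CPM in Acta2 high, against 251 CPM in Day 4. Cryab, a small heat shock protein, had 674 CPM in Acta2 low and 944 CPM in Acta2 high, against 1493 CPM in Day 4. In the other direction, Lsp1, an actin-binding protein of leukocytes and other cells, had 258 CPM in Acta2 low and 321 CPM in Acta2 high, against 147 CPM in Day 4. Vcam1, an adhesion receptor for integrins, had 110 CPM in Acta2 low and 108 CPM in Acta2 high, against 60.0 CPM in Day 4. Bsg, an inducer of matrix proteases, had 1190 CPM in Acta2 low and 988 CPM in Acta2 high, against 681 CPM in Day 4.

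Pmepa1, a feedback inhibitor of TGF-beta signalling, stood apart in Acta2 low alone, with 425 CPM there, 142 CPM in Acta2 high and 157 CPM in Day 4. Scx, a tendon transcription factor, had 6.88 CPM in Acta2 low and 19.6 CPM in Acta2 high, against 3.82 CPM in Day 4.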
